A study of Mus musculus with 4 samples.

Results

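The brain endothelium forms the blood-brain barrier through genes that seal the gaps between cells, pump drugs and steroids back into the blood, and carry nutrients across. The 10 genes described here were chosen by name for these roles: the junction genes Cldn5 and Ocln, the efflux pumps Abcb1a and Abcg2, the organic anion carrier Slco1a4, the nutrient carriers Slc2a1, Slc7a5, Slc16a1 and Mfsd2a, and the transferrin receptor Tfrc. They are 10 of the 31053 genes counted in single-nucleus RNA libraries from punches of the hypothalamic arcuate nucleus (ARC) of mice, and their levels are given in endothelial nuclei, in other classes of nuclei and by treatment. All mice were male wildtype C57BL/6J of 10 weeks. They had received either 3 weeks of DOCA-salt, which combines the mineralocorticoid deoxycorticosterone acetate with a saline drink, or 3 weeks of sham treatment. Nuclei of a pair of mice were pooled for each library, giving 2 DOCA-salt and 2 Sham pools (DOCA-salt 1, DOCA-salt 2, Sham 1 and Sham 2), and the pool was the replicate in every test.

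In the brain, claudin-5 (Cldn5) is the dominant sealing claudin of endothelial tight junctions, and occludin (Ocln) is a second membrane protein of the same junctions. P-glycoprotein (Abcb1a) and BCRP (Abcg2) return many lipophilic compounds to the blood, and Slco1a4 carries organic anions such as bile acids and steroid conjugates. GLUT1 (Slc2a1) supplies glucose, LAT1 (Slc7a5) large neutral amino acids, MCT1 (Slc16a1) lactate and ketone bodies, and Mfsd2a lipids that contain docosahexaenoic acid, while the transferrin receptor (Tfrc) takes up iron. The median eminence borders the ARC, and its vessels are fenestrated and lack a tight barrier.

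The libraries held 2203 to 18907 nuclei after filtering, 39176 in all. The median nucleus had 8215 unique molecular identifiers (UMIs, each a captured transcript) in Sham 1 against 2401 to 3278 in the other 3 libraries. A nucleus was called endothelial from Flt1, Ptprb, Ly6c1 and Esam alone, so none of the 10 genes entered the choice. This gate, which also removed nuclei with many neuronal UMIs, kept 203 nuclei, with 38 and 108 in the DOCA-salt pools and 15 and 42 in the Sham pools. They made up 0.369%, 0.571%, 0.681% and 0.541% of each library. The shares of the treatments overlapped (exact two-sided permutation test, p = 0.667, where 0.333 is the smallest p that 2 against 2 pools allow). Without the removal of nuclei with neuronal UMIs, the gate kept 66, 213, 44 and 91 nuclei in the same order. Their shares, 0.640%, 1.127%, 1.997% and 1.173%, did not overlap between the treatments and were lower in DOCA-salt. No p under 0.333 can come from such a split. Shares of microglia (1.106%, 0.767%, 2.860% and 1.856%) and mural nuclei (0.213%, 0.280%, 0.499% and 0.412%) were also lower without overlap. Those of astrocytes, oligodendrocytes and oligodendrocyte precursors overlapped. Both Sham pools had more UMIs in the median nucleus, so depth and treatment cannot be told apart here. Summed UMIs of the 203 nuclei were 114640, 411927, 113883 and 191158 in this order. Values below are CPM, the count of a gene scaled to a common library total, here these sums. Pairs of libraries shared 5 to 49 barcodes, at most 0.565% of a library. Of 12 endothelial genes outside the gate, among them Eng, Egfl7 and Pecam1, 10 passed the filter of low counts in the comparison with other classes and were called higher in these nuclei, where 4.87% of all genes tested were; genes scarce elsewhere pass this filter through the endothelial sums.

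Positions of the genes follow the GENCODE annotation of GRCm38, in which each of the 10 is protein coding. Cldn5 (ENSMUSG00000041378) is a gene of 1 exon on the plus strand of chromosome 16, from 18776847 to 18778262, and Tfrc lies on the same chromosome from 32608920 to 32632794. Slco1a4 (ENSMUSG00000030237) covers 141805440 to 141856199 on the minus strand of chromosome 6. Slc2a1 (ENSMUSG00000028645) covers 119108711 to 119137983 on the plus strand of chromosome 4. For 9 of the 10 genes RefSeq promoters were at hand (all but Slc7a5, build GRCm38.p6). For Cldn5, Ocln, Slc2a1, Slco1a4, Abcb1a, Abcg2, Slc7a5 and Tfrc, endothelial nuclei did not overlap any of the 5 other classes tested. The 250 bases before the start are shown for Cldn5, Slco1a4 and Slc2a1, of which Slc2a1 had a clear level in astrocytes as well. They lie at chr16:18776597-18776846 (plus strand), chr6:141856221-141856470 (minus strand) and chr4:119108495-119108744 (plus strand). Capitals mark the motif cores AGGAAG (ETS factors), ACAANG (SOX factors) and GGGCGG (GC box) on either strand.
Cldn5: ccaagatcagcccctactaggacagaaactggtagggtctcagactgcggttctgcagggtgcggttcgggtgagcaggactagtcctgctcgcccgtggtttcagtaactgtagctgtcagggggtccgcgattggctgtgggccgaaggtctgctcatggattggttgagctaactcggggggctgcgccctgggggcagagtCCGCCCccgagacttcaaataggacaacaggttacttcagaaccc
Slco1a4: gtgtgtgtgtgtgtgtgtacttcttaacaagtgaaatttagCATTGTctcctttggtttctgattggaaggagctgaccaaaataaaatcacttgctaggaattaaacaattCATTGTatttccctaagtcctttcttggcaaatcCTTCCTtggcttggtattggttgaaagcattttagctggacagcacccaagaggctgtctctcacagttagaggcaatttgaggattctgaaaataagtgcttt
Slc2a1: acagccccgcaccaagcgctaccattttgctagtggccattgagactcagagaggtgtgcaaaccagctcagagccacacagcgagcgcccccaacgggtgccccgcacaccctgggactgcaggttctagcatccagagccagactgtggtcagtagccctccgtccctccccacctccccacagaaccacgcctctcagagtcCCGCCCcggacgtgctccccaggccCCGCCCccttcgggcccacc
The Cldn5 sequence held 1 GC box and no match to the other motifs, the Slco1a4 sequence 1 ETS and 2 SOX matches, and the Slc2a1 sequence 2 GC boxes. Of all 32851 promoter windows of this length 29.5% held the ETS core, 36.3% the SOX core and 32.7% a GC box. The 9 genes had 13 such windows, of which 6 held the ETS core, 4 the SOX core and 8 a GC box. The ETS and SOX windows belonged to Abcb1a, Abcg2, Slco1a4 and Tfrc. That of Abcb1a (chr5:8566841-8567090) lies far before the GENCODE span of the gene, 8660077 to 8748575, so the 2 annotations differ in its start. The share of G and C was 59.6% for Cldn5, 39.2% for Slco1a4 and 66.4% for Slc2a1, beside a median of 52.4% over all windows. A match is a string of letters and says nothing of binding.

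All 10 genes were higher in endothelial nuclei than in the mean of the other 5 classes with at least 10 nuclei in each library (astrocytes, oligodendrocytes, oligodendrocyte precursors (OPC), microglia and neurons). Of the 10153 genes tested, 4.87% were called higher in this comparison at a false discovery rate (FDR) under 0.05. A gene scarce elsewhere passes the filter of low counts through the endothelial sums. Here and below, counts of genes called higher by class are therefore partly set by the filter. The test was edgeR's quasi-likelihood test with the library as a block and Benjamini-Hochberg adjustment over all genes tested. Log2 fold changes ran from 6.39 for the junction gene Cldn5 to 1.17 for the lactate carrier Slc16a1. The library block takes out differences between pools that all classes share. The p-values therefore rest on how far the differences between classes vary among the 4 pools, DOCA-salt and Sham alike.

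Of the junction genes, Cldn5 stood at 342 to 1335 CPM in endothelial nuclei and at 4.34 to 12.8 CPM in neurons. Its log2 fold change over the other classes was 6.39 (SE 0.21, edgeR FDR = 2.32e-29). The ranges of the remaining 5 classes overlapped each other from one to the next. Ocln was low throughout, at 29.1 to 47.1 CPM from 5 to 12 UMIs per library in endothelial nuclei and 0.732 to 1.26 CPM in neurons, with a log2 fold change of 5.04 (SE 0.51, edgeR FDR = 4.53e-11). Each junction gene was called higher in endothelial nuclei than in each of the other 5 classes. In microglia Cldn5 had UMIs in DOCA-salt 2 alone. Classes with fewer nuclei were not tested: in the 3 fibroblast-gated nuclei of DOCA-salt 2 Cldn5 was at 1765 CPM and Slco1a4 at 1140 CPM, above the endothelial values of that library. In the 11 mural-gated nuclei of DOCA-salt 1 Slco1a4 was at 1268 CPM and Slc2a1 at 528 CPM, against 846 and 323 CPM in its endothelial nuclei. In the remaining libraries the mural values of both genes were below the endothelial ones.

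The efflux pump Abcb1a had 184 to 297 CPM in endothelial nuclei and 1.83 to 6.08 CPM in neurons, a log2 fold change of 6.06 over the other classes (SE 0.28, edgeR FDR = 2.15e-23). Its close copy Abcb1b, with which reads of Abcb1a may be shared, had no UMI in the endothelial nuclei of any library. The organic anion carrier Slco1a4 reached 501 to 846 CPM against 4.43 to 7.86 CPM in neurons, with a log2 fold change of 6.01 (SE 0.18, edgeR FDR = 7.04e-31). Abcg2, the second efflux pump, had 87.8 to 174 CPM in endothelial nuclei. It was next highest in OPC, at 13.5 to 21.6 CPM, and its log2 fold change over the mean of the other classes was 3.74 (SE 0.25, edgeR FDR = 7.46e-17).

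The glucose and amino acid carriers were also called higher in endothelial nuclei than in each other class. Slc2a1 (GLUT1) was at 272 to 323 CPM in endothelial nuclei, at 62.9 to 100.2 CPM in astrocytes and at 16.1 to 23.2 CPM in neurons, and the first 3 classes in this order (endothelial, astrocyte, oligodendrocyte) did not overlap. Its log2 fold change was 1.87 over astrocytes (SE 0.16, edgeR FDR = 1.55e-13) and 3.99 over neurons (SE 0.15, edgeR FDR = 1.81e-26). Slc7a5 (LAT1) had 219.7 to 375 CPM in endothelial nuclei and 38.1 to 48.2 CPM in astrocytes, the next class. Its log2 fold change over the mean of the other classes was 2.87 (SE 0.16, edgeR FDR = 5.97e-20).

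Mfsd2a and Slc16a1 were not highest in endothelial nuclei alone. Mfsd2a, the lipid carrier, was at 57.5 to 104.7 CPM in endothelial nuclei, 62.8 to 117.5 CPM in astrocytes and 71.8 to 151 CPM in OPC, and these 3 ranges overlapped. Its log2 fold change was −0.26 over OPC (SE 0.235, edgeR FDR = 0.642) and −0.24 over astrocytes (SE 0.228, edgeR FDR = 0.663), while over oligodendrocytes, microglia and neurons it was 1.86, 2.48 and 2.89, each called. Slc16a1, the lactate carrier, was at 31.4 to 79.0 CPM in endothelial nuclei (6 to 17 UMIs) and at 33.8 to 61.1 CPM in oligodendrocytes. Its log2 fold change was −0.08 over oligodendrocytes (SE 0.31, edgeR FDR = 0.933), 0.80 over astrocytes (SE 0.33, edgeR FDR = 0.143) and 1.17 over the mean of the other classes (SE 0.32, edgeR FDR = 0.0129). This last call was lost without DOCA-salt 1 (edgeR FDR = 0.0797) or without Sham 1 (edgeR FDR = 0.123).

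The iron receptor Tfrc was present in every class. It was at 105 to 297 CPM in endothelial nuclei and at 56.4 to 75.5 CPM in neurons, with a log2 fold change of 1.60 over the mean of the other classes (SE 0.17, edgeR FDR = 1.87e-10). Counted gene by gene, 10 of 10 genes were called higher than in neurons (9.81% of all genes tested) and in microglia (3.23%), 9 of 10 than in oligodendrocytes (5.73%) and in OPC (5.36%), and 8 of 10 than in astrocytes (4.73%).

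**Figure D1:**
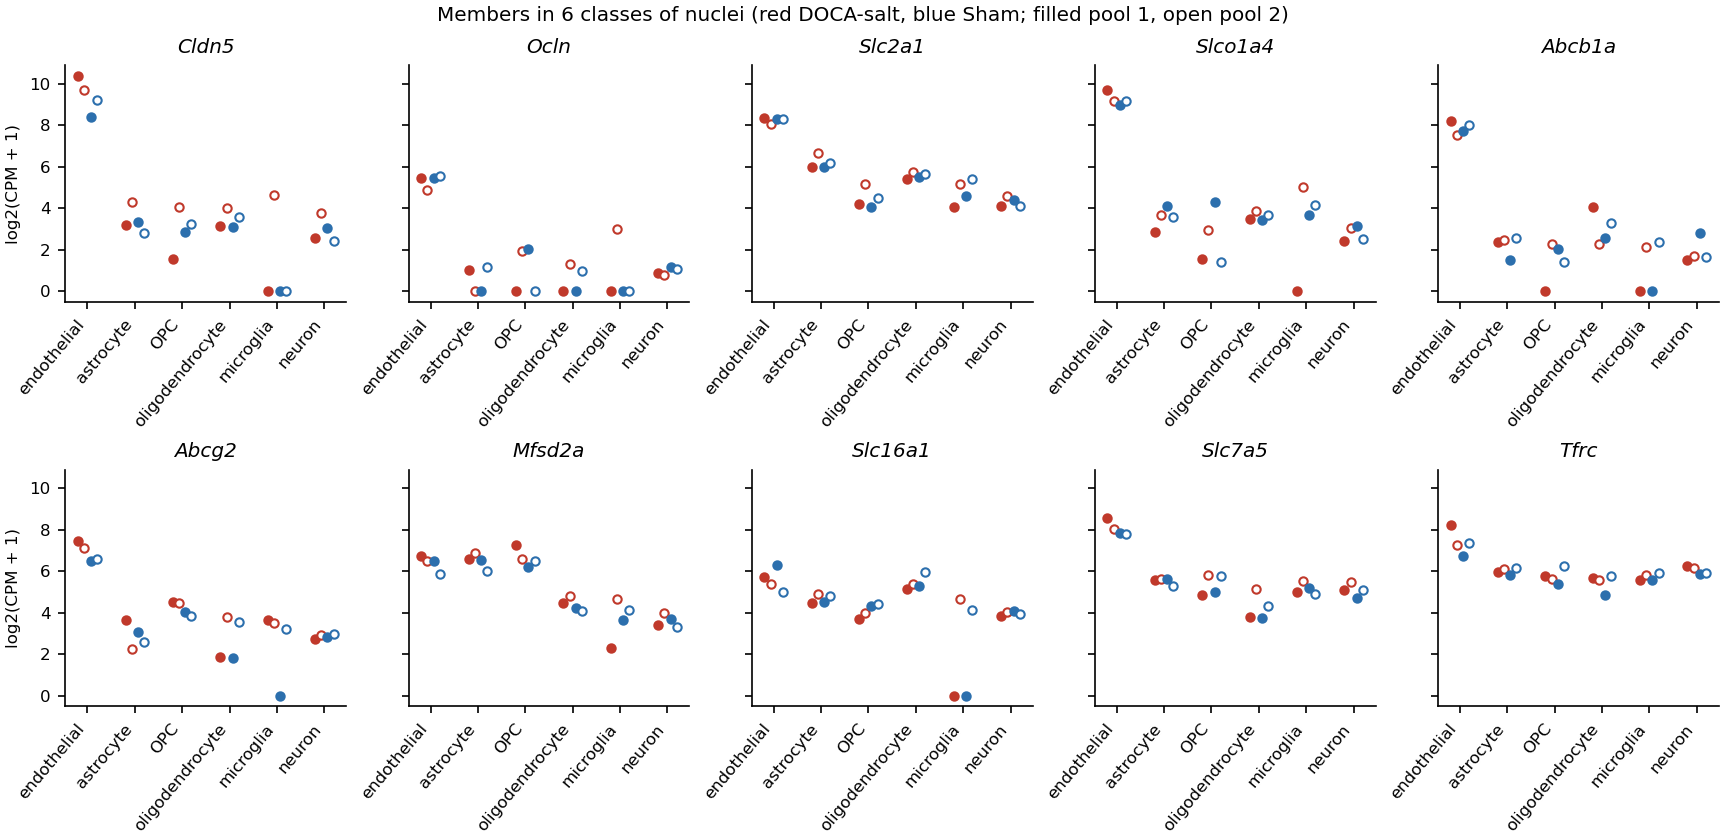
Level of each gene as log2(CPM + 1) (vertical axis) in 6 classes of nuclei (horizontal axis), with a point per library (red DOCA-salt, blue Sham, filled pool 1, open pool 2). Endothelial nuclei stand apart from the other classes for all genes but Mfsd2a, which overlaps astrocytes and OPC, and Slc16a1, which overlaps oligodendrocytes.

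**Figure D2:**
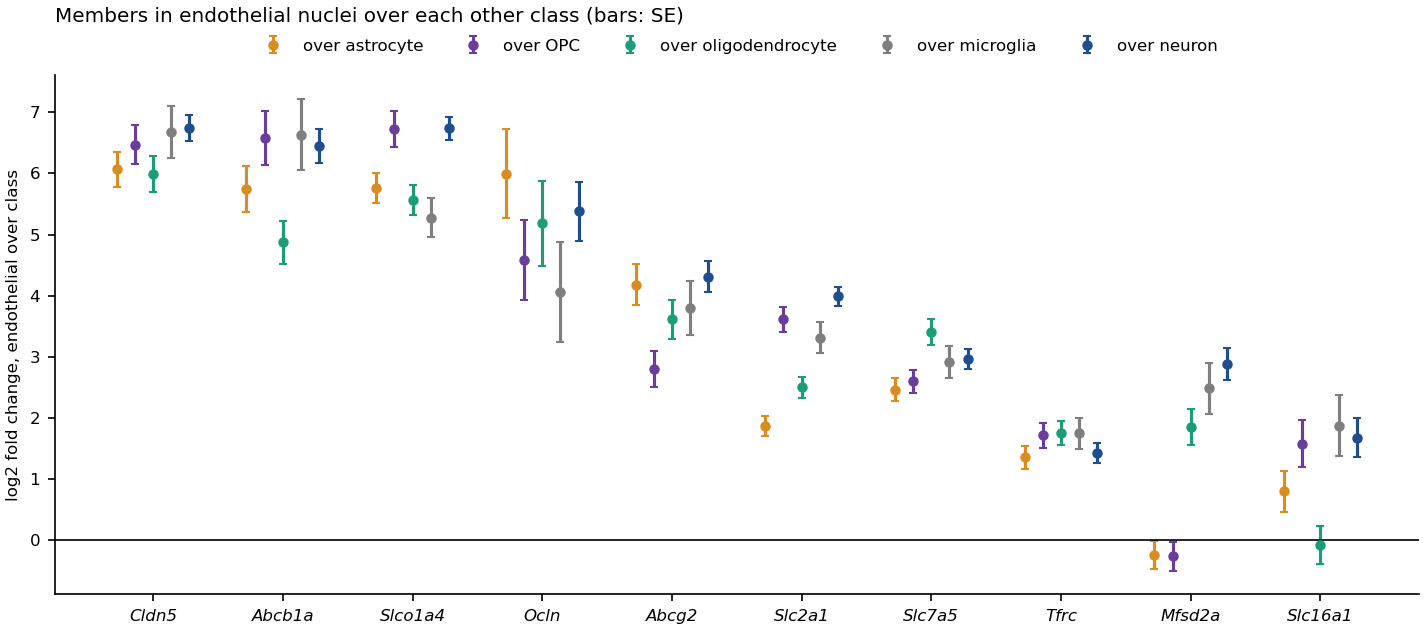
Log2 fold change of endothelial nuclei over each other class (vertical axis) for the 10 genes (horizontal axis), ordered by their fold change over the mean of the classes, with bars for the SE. Points run from 6.74 for Cldn5 over neurons down to −0.26 for Mfsd2a over OPC.

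The level in neurons, which should lack most of these genes, was a median of 1.14% of the endothelial level for Cldn5, 1.02% for Abcb1a, 1.03% for Slco1a4 and 2.41% for Ocln. For Slc2a1 it was 5.81%, for Abcg2 5.94%, for Slc7a5 12.9%, for Mfsd2a 14.6%, for Slc16a1 31.7% and for Tfrc 41.0%. How much of the neuronal level is free RNA was not tested.

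Shares of single nuclei were also compared. Without thinning, 78.6% to 93.3% of endothelial nuclei had a UMI of Cldn5, against 1.51% to 6.52% of neurons, with median depths of 1548.5 to 4720 UMIs and 2989 to 9036 UMIs. When each nucleus was thinned to 1000 UMIs, which left out 10, 27, 0 and 5 endothelial nuclei of DOCA-salt 1, DOCA-salt 2, Sham 1 and Sham 2, the shares were 71.4%, 54.3%, 33.3% and 56.8%. In neurons thinned in the same way they were 0.649%, 0.943%, 0.760% and 0.612%. The exact 95% binomial interval in Sham 1, which rests on 15 nuclei, ran from 11.8% to 61.6%, so the order of the libraries is not resolved. The intervals cover counting error only. For Slco1a4 the thinned shares of endothelial nuclei were 42.0% to 57.1%, for Slc2a1 26.7% to 35.1% and for Abcb1a up to 35.7%, against 0.470% to 1.06%, 1.53% to 2.36% and 0.134% to 0.608% of neurons.

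Most UMIs of these genes lay outside the gated nuclei. These nuclei held 7.24% to 20.9% of all Cldn5 UMIs of a library, 9.69% to 16.9% of those of Slco1a4 and 0.970% to 1.31% of those of Tfrc. A cluster of 1145 nuclei, built without the 10 genes and holding at least 88.1% of the gated nuclei of each library, had 71.6% to 79.0% of the Cldn5 UMIs, 68.9% to 82.6% of those of Slco1a4 and 5.24% to 10.8% of those of Tfrc. Gated nuclei made up only 15.5% to 21.4% of the cluster in each library. With neuronal UMIs kept, 56 of its 159 nuclei in DOCA-salt 1 passed the gate, 196 of 679 in DOCA-salt 2, 36 of 90 in Sham 1 and 80 of 217 in Sham 2. Most of the cluster was thus not labelled endothelial even then. The label also required a nucleus to stand clear of the next class. Nuclei that met the endothelial marker criteria but not this margin were not counted apart. The share of the cluster that failed those criteria is therefore not known. In this cluster the 4 gate genes together were at 1040 CPM over all libraries, against 1651 to 2233 CPM in gated nuclei. Gated nuclei were chosen by these genes, so their higher level was set by the gate and says nothing of the cluster's purity. The values by treatment are given for both sets.

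Over the 24 sums of 4 libraries and 6 classes, which share libraries and depth, the pattern of Cldn5 in log2(CPM + 10) was most like Acvrl1 (Pearson's r = 0.976), Igfbp7 (0.973) and Esam (0.973). That of Slco1a4 was most like Flt1 (0.981), Adgrl4 (0.978) and Lsr (0.978). That of Abcb1a was most like Osmr (0.989), that of Ocln like Adgrl4 (0.988), that of Slc2a1 like Adgre5 (0.938) and that of Abcg2 like Cyyr1 (0.947). Slc7a5 was most like Lef1 (0.939) and Cldn5 (0.931), and Tfrc most like Gjc1 (0.922). Mfsd2a and Slc16a1 had no gene as close, with Slc38a3 (0.885) and Nkd1 (0.829) in first place. Among the 10 genes themselves r was 0.968 between Cldn5 and Slco1a4 and 0.385 between Mfsd2a and Slc16a1. Flt1 and Esam belong to the 4 gate genes, so their peak in the endothelial sums was fixed by the choice of nuclei, and a gene high in that class must resemble them. These are descriptions, and genes are not replicates.

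Genes that work beside the 10 followed them in part. Of all genes tested by class 4.87% were called higher. Genes scarce elsewhere again entered the test through the endothelial sums, so the counts of the lists are partly set by the filter. Of 13 junction and adhesion partners 9 were tested and 6 were higher in endothelial nuclei, among them the adhesion gene Pecam1 (log2 fold change 4.81) and Lsr (5.63), a gene of tricellular junctions, while Tjp1, a scaffold of tight junctions, was 1.42 higher. Cldn1 and Cldn3 had no UMI in endothelial nuclei. Of 18 further genes with a solute carrier symbol 15 were tested and 10 were higher. Among these were the thyroid hormone carrier Slco1c1 (4.47) and the taurine carrier Slc6a6 (1.73). Of 6 further efflux pumps 4 were tested and 1, Abcc4, was higher (3.44). Of 14 Wnt and barrier regulators 9 were tested and 8 were higher, among them the transcription factors Foxq1 (5.28), Lef1 (4.02) and Ebf1 (2.95). None of these lists had a member called lower. Median log2 fold changes of their tested genes were 1.04, 1.67, −0.19 and 2.88, beside 3.40 for the 10 genes and −0.03 for all genes tested.

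A list of 10 genes of vesicle traffic and receptors, which also held the proteoglycan gene Spock2, was counted too. Of these 7 were tested and 5 were higher in endothelial nuclei, beside 4.87% of all genes tested. Among the 5 were Spock2 (1.42), the caveolar gene Cavin2 (3.24) and the insulin receptor Insr (0.80). Plvap, which marks fenestrated vessels, was at 8.72 to 14.6 CPM in endothelial nuclei. It had 1 and 6 UMIs in the DOCA-salt pools and 1 and 2 in Sham, so its level says little of such vessels. Of 5 genes of fenestrated vessels 3 were tested and 0 were called, with edgeR FDR values of 0.482 to 0.936.

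By treatment, none of the 8 genes that could be tested was called in endothelial nuclei. Cldn5 was higher in both DOCA-salt pools than in both Sham pools, but its adjusted p stayed above the threshold. Of the 10 genes 8 passed the filter of low counts (Ocln and Slc16a1 did not), 0 were called by edgeR or DESeq2, and 1, Cldn5, had an unadjusted edgeR p under 0.05. Over all 3870 genes tested, 3 were called (0.0775%), all lower in DOCA-salt, and 247 had an unadjusted p under 0.05. On simulated data with 4-fold changes the same test recovered 17.6% of the changed genes, 18 of 102 that passed the filter. The simulation gave every gene the same fixed spread, not a spread estimated from these pools. Changed genes were drawn from all above a low total count, so this share is not the power for the barrier genes.

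Cldn5 was at 1335 and 828 CPM in the DOCA-salt pools, against 342 and 591 CPM in the Sham pools, from 153, 341, 39 and 113 UMIs. The DOCA-salt values were above the Sham values, and the pools of each treatment differed by over 1.5-fold among themselves. The log2 fold change was 1.20 (SE 0.33, edgeR FDR = 0.291). It was positive under every alternative, between 0.69 and 1.72. It was called in 2 of 17: without DOCA-salt 2 (1.55, edgeR FDR = 9.53e-05) and with all sums thinned to the smallest library (1.44, edgeR FDR = 0.0383). Without DOCA-salt 1 it was 0.80 (edgeR FDR = 0.204) and without Sham 1 0.85 (edgeR FDR = 1.00).

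In the larger cluster Cldn5 was at 668 and 588 CPM in the DOCA-salt pools, against 399.9 and 270.1 CPM in Sham, a log2 fold change of 0.86 (SE 0.25, edgeR FDR = 0.182). There too the groups did not overlap. The 4 gate genes, whose levels are conditioned on the gate, had log2 fold changes of 1.33 (Esam), 0.61 (Ly6c1), 0.03 (Flt1) and −0.62 (Ptprb) in gated nuclei, and none was called. The 12 endothelial genes outside the gate summed to 2364 and 1527 CPM in the DOCA-salt pools, against 1159 and 1548 CPM in Sham, which overlapped, and when libraries were scaled to them, which shifts the median of all genes by −0.44, Cldn5 had 0.70 (SE 0.64, edgeR FDR = 0.877).

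Markers of other cells in the endothelial nuclei were summed per library. Of the 9 lists, those of fibroblasts and astrocytes did not overlap between the treatments. Over all single genes tested, 16.5% had both DOCA-salt values above both Sham values and 18.6% both below. The share for sums of 4 genes was not counted, so nothing is drawn from the lack of overlap. The 4 fibroblast markers summed to 43.6 and 43.7 CPM in the DOCA-salt pools, against 8.78 and 5.23 CPM in Sham, and the 4 astrocyte markers to 436 and 493 CPM against 369 and 345 CPM. The fibroblast sums rest on few UMIs. Col1a2, the fibroblast marker with the most, had 2 and 12 UMIs in the DOCA-salt pools and 0 and 0 in Sham. The sums of the other 7 marker lists of other classes overlapped, among them those of mural cells (263 to 523 CPM) and of neurons (1108 to 1712 CPM). The neuron list summed to 1108 and 1408 CPM in endothelial nuclei of the DOCA-salt pools, against 1712 and 1219 CPM in Sham. In nuclei gated as neurons it summed to 2837 and 3285 CPM, against 3252 and 2717 CPM, so neuronal RNA was not scarce in the endothelial nuclei. Of these 9 lists only the ependymal one had a marker at 0 in all 4 libraries (Tmem212). Bc1, a neuronal noncoding RNA, was at 375 and 347 CPM in the DOCA-salt pools, against 3091 and 3411 CPM in Sham (log2 fold change −3.14, edgeR FDR = 9.25e-07). The mitochondrial gene mt-Atp8 was also lower, at 166 and 89.8 CPM against 360 and 528 CPM (−1.92, edgeR FDR = 0.0295). The part of these RNAs in the value of Cldn5 was not tested.

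Ocln, the other junction gene, was at 43.6 and 29.1 CPM in the DOCA-salt pools, against 43.9 and 47.1 CPM in Sham, from 5, 12, 5 and 9 UMIs. The DOCA-salt values were below the Sham values, with DOCA-salt 1 and Sham 1 almost equal. The exact 95% Poisson interval of DOCA-salt 1 alone, 14.2 to 102 CPM, covered the values of all libraries, and no difference was detectable at this depth.

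Abcg2 was at 174 and 136 CPM in the DOCA-salt pools, against 87.8 and 94.2 CPM in Sham. The groups did not overlap, and the log2 fold change was 0.74 (SE 0.40, edgeR FDR = 0.834). In the larger cluster, with 118 and 89.1 CPM against 134.6 and 78.5 CPM, the groups overlapped and the log2 fold change was −0.09 (SE 0.26). Abcb1a was at 297 and 184 CPM in the DOCA-salt pools, against 211 and 262 CPM in Sham, with a log2 fold change of −0.03 (SE 0.35). Slco1a4 was at 846 and 580.2 CPM in the DOCA-salt pools, against 501 and 580.7 CPM in Sham, with a log2 fold change of 0.40 (SE 0.30), and DOCA-salt 1 alone stood apart.

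Slc2a1 was the most even of the nutrient carriers, at 323 and 272 CPM in the DOCA-salt pools, against 316 and 314 CPM in Sham, with a log2 fold change of −0.07 (SE 0.32). Slc7a5 was at 375 and 259.8 CPM in the DOCA-salt pools, against 228 and 219.7 CPM in Sham. Its groups did not overlap, and the log2 fold change was 0.49 (SE 0.34, edgeR FDR = 0.862). In the larger cluster it was −0.07 (SE 0.23), with overlapping groups. Mfsd2a, at 104.7 and 89.8 CPM against 87.8 and 57.5 CPM, did not overlap either, with a log2 fold change of 0.46 (SE 0.46). Slc16a1 was at 52.3 and 41.3 CPM in the DOCA-salt pools, against 79.0 and 31.4 CPM in Sham and was not tested for want of counts.

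Tfrc was at 297 and 153 CPM in the DOCA-salt pools, against 105 and 162 CPM in Sham, with overlapping groups and a log2 fold change of 0.63 (SE 0.40, edgeR FDR = 0.854). Of the 8 genes tested, 4 (Cldn5, Abcg2, Mfsd2a and Slc7a5) had both DOCA-salt values above both Sham values and 0 had both below. Over all genes tested these shares were 16.5% and 18.6%. Ocln, which was not tested, had both DOCA-salt values below both Sham values. The median log2 fold change of the 8 was 0.48, beside 0.01 for all genes tested, and 6 were positive. The 8 tested of the 12 endothelial genes outside the gate had a median of 0.53. When libraries were scaled to those 12 genes, the median of the barrier genes was −0.017 and 5 of 8 were negative. In the larger cluster, where all 10 genes were tested, the median was −0.071 and 4 were positive. In the larger cluster Cldn5, Mfsd2a and Tfrc did not overlap, while the other genes, among them Abcg2 and Slc7a5, did. The share of all genes without overlap was not counted in the cluster, so nothing is drawn from this.

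**Figure D3:**
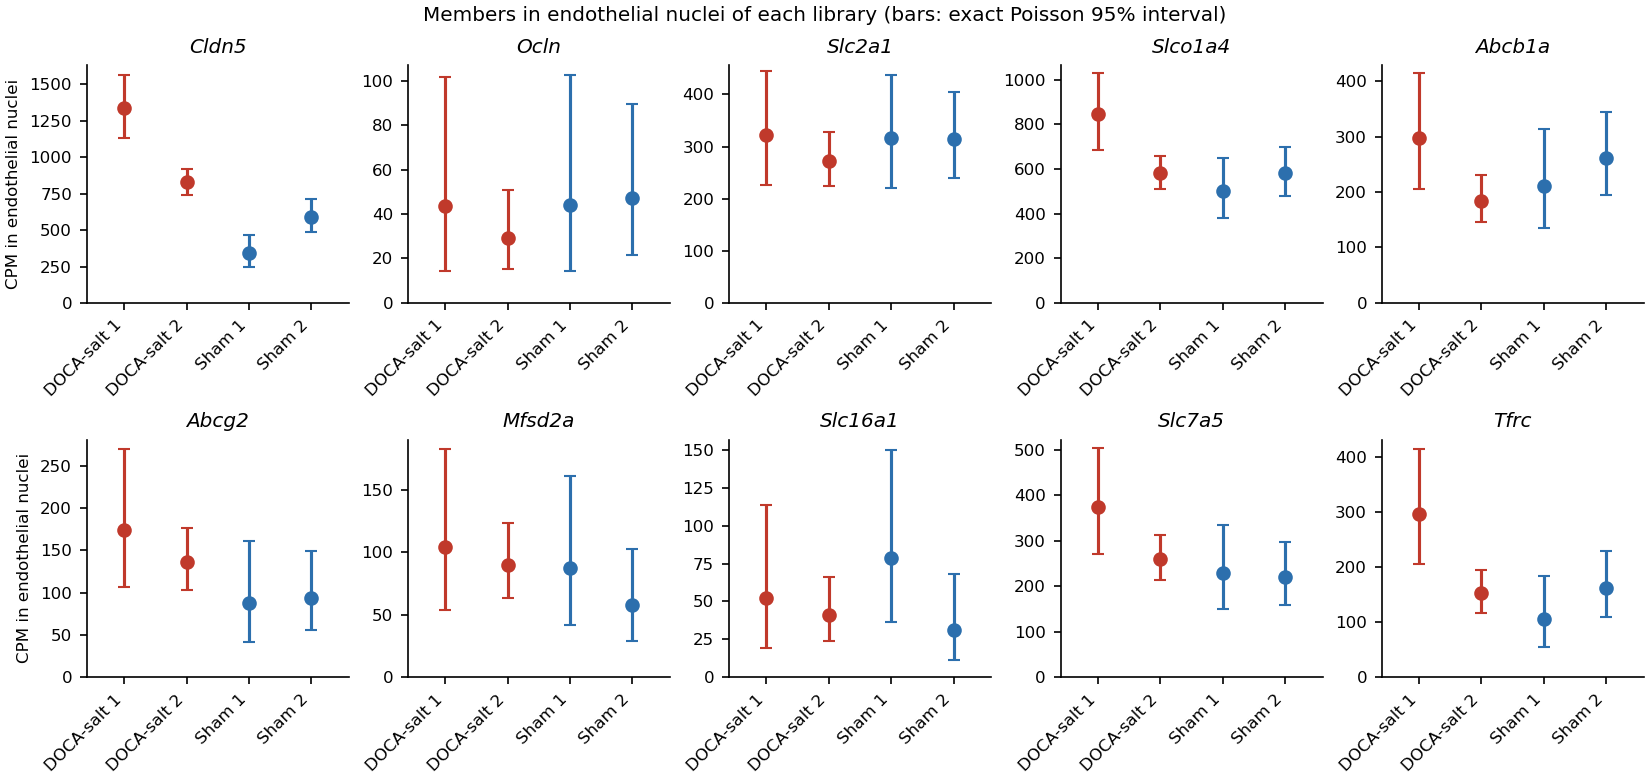
CPM of each gene in gated endothelial nuclei (vertical axis from 0) for each library (horizontal axis, red DOCA-salt, blue Sham), with bars for the exact Poisson 95% interval of the UMIs, which covers counting error only. The intervals of both DOCA-salt pools lie above those of both Sham pools for Cldn5 alone.

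**Figure D4:**
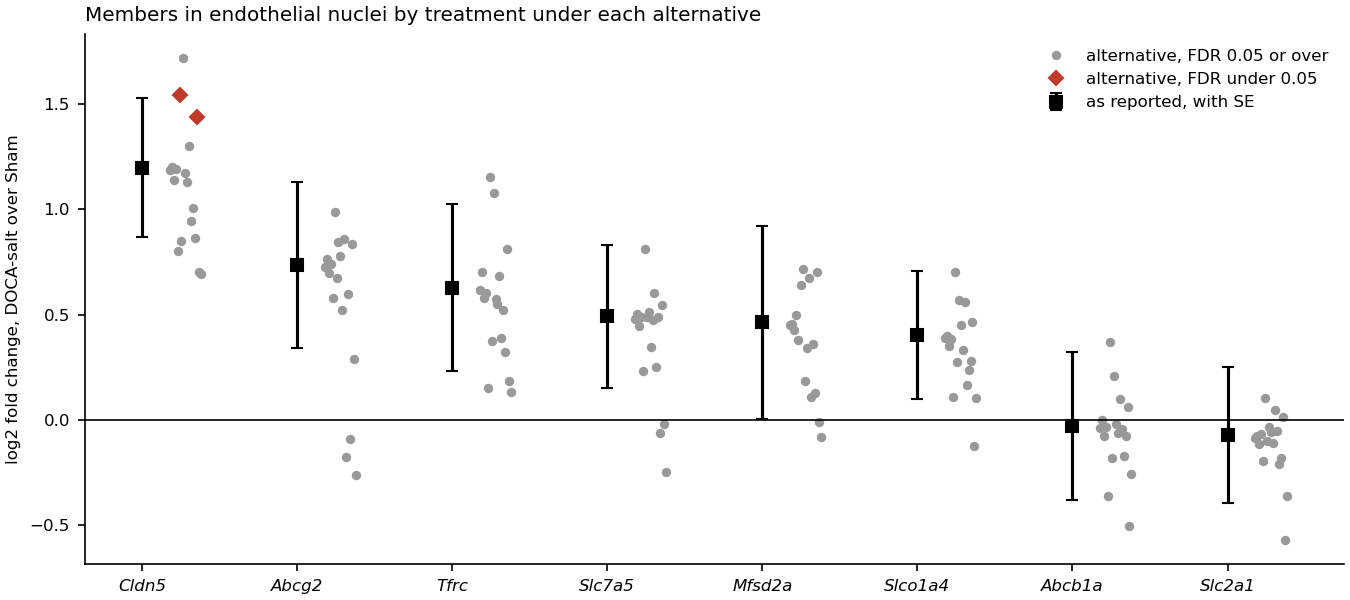
Log2 fold change of DOCA-salt over Sham in endothelial nuclei (vertical axis) for the 8 genes tested. Black squares are the reported values with SE, grey points the alternatives with an FDR of 0.05 or over, and red diamonds those under it, which occur for Cldn5 alone (1.55 and 1.44).

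With 0.0775% of all genes called, lists of this size would hold calls rarely. Among 13 junction partners 4 were tested and among 18 genes with a solute carrier symbol 9. Among 14 Wnt and barrier regulators 4 were tested and among the 10 genes of the vesicle and receptor list 5. In each of these lists 0 were called by edgeR. Their median log2 fold changes were 0.26, 0.41, 0.28 and −0.02. Of 6 efflux pumps 1 was tested (Abcc5, log2 fold change −0.01, edgeR FDR = 1.00).

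Outside endothelial nuclei none of the 10 genes that could be tested was called by treatment, and none had an unadjusted p under 0.05. The number tested was 6 in astrocytes, 1 in microglia, 10 in neurons, 5 in oligodendrocytes and 6 in OPC, where 0.0974%, 0.0168%, 0.0%, 0.0213% and 0.0218% of all genes were called. Mfsd2a had its largest fold change in OPC, with 151 and 95.5 CPM in the DOCA-salt pools, against 71.8 and 87.8 CPM in Sham (log2 fold change 0.54, SE 0.29, edgeR FDR = 0.682). In astrocytes it was at 95.8 and 117.5 CPM in the DOCA-salt pools, against 90.6 and 62.8 CPM in Sham (0.45, SE 0.26, edgeR FDR = 0.629). The groups overlapped in neither class. The share of all genes without overlap was not counted in these classes, so nothing is drawn from this. Cldn5 in neurons had a log2 fold change of 0.60 (SE 0.52, edgeR FDR = 0.738) from 4.91 and 12.8 CPM in the DOCA-salt pools, against 7.34 and 4.34 CPM in Sham. DOCA-salt 2 had the highest Cldn5 in each of these classes, at 18.8 CPM in astrocytes, 15.2 in oligodendrocytes, 15.6 in OPC and 24.3 in microglia. Over all kept nuclei Cldn5 was at 19.5 and 45.8 CPM in the DOCA-salt pools, against 25.4 and 16.5 CPM in Sham, which overlapped. The cause was not tested.

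The difference of the treatment effects between endothelial nuclei and each other class was tested as an interaction. All 10 genes were tested against 4 of the classes and 9 (all but Ocln) against microglia. None of those tested was called in any of the 5 comparisons, in which 0.032%, 0.0622%, 0.0347%, 0.0336% and 0.0234% of all genes were called (astrocytes, microglia, neurons, oligodendrocytes, OPC), and 0 had an unadjusted edgeR p under 0.05. For Cldn5 against neurons the interaction was 0.35 (SE 0.24, edgeR FDR = 1). Against astrocytes, oligodendrocytes and OPC it was 0.15 (SE 0.68), 0.53 (SE 0.56) and 0.49 (SE 0.82). Against microglia it had the opposite sign, at −3.51 (SE 1.80, edgeR FDR = 0.998). That value rests on 7 microglial UMIs of Cldn5, all in DOCA-salt 2.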

How the data were processed

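The submitters' processing notes name Cell Ranger 3.0.1 and the mouse build mm10, and the authors deposited raw UMI counts for each barcode called as a nucleus. Nuclei with over 200 and under 7000 genes, under 25000 UMIs and under 15% mitochondrial UMIs were kept. A nucleus passed a class gate with at least 2 of 4 marker genes, 3 UMIs and a share of the list 3 times that of its library, and stood 3 times above the next class. Nuclei with at least 3 neuronal UMIs and a neuronal share of at least 0.75 of the library's were set aside. Counts were summed per library and class and tested with edgeR 4.0.16 (TMM, filterByExpr, R 4.3.3). Standard errors were derived from the F statistic. Alternatives used DESeq2 1.42.0, Scrublet and Leiden clusters (scanpy 1.11.5). Scrublet's threshold called 0, 0, 2 and 4 nuclei, so doublets stayed in except in an alternative. The genes and lists were chosen with earlier results of these data known. Named are the 10 genes, gate genes, called genes, list examples of high level and the genes most alike in pattern. Rgs5, Pdgfrb, Plvap, Txnip, Tmem212, Abcb1b, Cldn1 and Cldn3 were named after their values were seen.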

Additional observations from a re-analysis of the deposited data

How the results depend on the processing

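In endothelial nuclei 3 genes were called by treatment. This count was 1 with DESeq2, 23 with no filter of low counts, 12 with the replicate number as a block, 1 without the nuclei of highest doublet score, 7 with neuronal UMIs kept, 19 in the larger cluster, 6 with sums thinned to the smallest library and 7 to 37 without 1 library (37 without DOCA-salt 1, 20 without DOCA-salt 2, 16 without Sham 1 and 7 without Sham 2), where the lone pool is assumed to vary like the other group. Scaled to endothelial genes, an alternative chosen after seeing the data, the cluster gave 205. Same-numbered pools deviated with r = −0.0747 over 3870 genes, so the number was not taken as pairing, and under the block no gene of the 10 was called. The class comparison called 607 genes, 1006 with no filter, 399 with no library block and 442 to 652 without 1 library. By treatment in other classes, no filter gave 50 (astrocytes), 11 (microglia), 261 (neurons), 58 (oligodendrocytes) and 28 (OPC) against 10, 1, 0, 2 and 2, and RLE size factors gave 2 in microglia and 1 in OPC. Without 1 library, chosen after seeing the data, the ranges were 16 to 345, 6 to 110, 1 to 1837, 10 to 254 and 13 to 146. The interaction counts of 3, 4, 5, 3 and 2 became 1, 2 and 0 in microglia, neurons and OPC under the strict gate, and 1 to 6, 1 to 8, 2 to 4, 1 to 4 and 2 to 8 without 1 library, also chosen after seeing the data. The mean share of endothelial nuclei differed by −0.141 percentage points (DOCA-salt minus Sham, exact permutation test, p = 0.667), with overlapping pools. Without 1 library the mean stayed lower in DOCA-salt, by 0.0399 to 0.242 percentage points.

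Uncalled genes changed sign as follows on the log2 scale. Slc2a1 had 0.047 without doublets, 0.013 when thinned and −0.199 to 0.102 without 1 library, positive without DOCA-salt 2. Abcb1a had 0.097 without doublets, 0.061 when thinned and −0.366 to 0.369 without 1 library, positive without DOCA-salt 2 (0.369) or Sham 2 (0.206). Abcg2 had −0.178 with neuronal UMIs kept, −0.093 in the cluster and −0.263 in the scaled cluster. Slc7a5 had −0.066, −0.023 and −0.248 in the cluster, with scaling and with both. Mfsd2a had −0.011 with scaling and −0.082 in the scaled cluster, and Slco1a4 −0.124 with scaling. The causes were not tested. Only 15 to 108 nuclei per library carry the endothelial values.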

Other observations

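Mgp, an arterial matrix gene, was at 462 and 55.8 CPM in endothelial nuclei of the DOCA-salt pools, against 35.1 and 382 CPM in Sham. Vwf, higher in larger vessels, was at 218, 51.0, 26.3 and 73.2 CPM. Hemoglobin transcripts were highest in Sham 2, with Hbb-bs at 506, 1039, 623 and 3285 CPM, and Hba-a2 was called lower in DOCA-salt (log2 fold change −2.08, edgeR FDR = 0.0295). Of the other lists tested by treatment in endothelial nuclei, where 0.0775% of all genes were called, 0 of 1 arterial, 0 of 3 venous, 0 of 1 fenestrated, 0 of 4 hypoxia, 0 of 5 steroid and stress and 0 of 8 endothelial genes outside the gate were called by edgeR, with 1 of 4 blood cell genes. No gene of endothelial activation had the counts to be tested. By class, 3 of 5 arterial, 3 of 5 venous, 0 of 2 activation, 1 of 6 hypoxia (Txnip), 0 of 10 steroid and stress and 4 of 5 blood cell genes were higher in endothelial nuclei, beside 4.87% of all genes, and 0 of each were lower.

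Rgs5, a marker of mural cells, was at 255 to 462 CPM in endothelial nuclei, whereas Pdgfrb, another mural marker, was at 5.23 to 26.2 CPM. In the few nuclei gated as mural (11, 30, 3 and 9), Cldn5 was at 793, 478, 70.2 and 21.1 CPM.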
